A study of Mus musculus with 8 samples.

Results

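The early transcriptional response to TGF-β of NMuMG cells labelled as *Lnc-Nr6a1* knockout was described across all genes. NMuMG cells are epithelial cells of the normal mouse mammary gland, kept as a line, and undergo an epithelial-mesenchymal transition (EMT) when they are exposed to TGF-β. The response was measured in 4 of the 8 RNA-seq libraries of the study, chosen by their labels, which were 2 biological replicates of untreated cells labelled knockout and 2 of cells labelled knockout that had received TGFβ1 at 10 ng/ml during 2 h. The other libraries were 2 of untreated control NMuMG cells and 2 of control cells given the same treatment. All groups carried the same cell line background and were grown with serum and insulin. The labelled knockout was made with CRISPR/Cas9 and paired guides that flank the transcription start of *Lnc-Nr6a1*, after which single cells were sorted and grown into clones. Whether the replicates stem from 1 clone or several is not given in the sources used here, so that an effect of the deletion and a property of a clone cannot be told apart. In what follows, untreated and treated libraries 1 and 2 are those labelled knockout, unless control is written. The p-values set a change against the spread between replicates, which was estimated over all 8 libraries, control libraries included. If the replicates come from 1 clone, that spread does not cover differences between clones. Levels are given as CPM, the counts scaled to a common library size after adjustment of the library sizes by trimmed mean of M values (TMM). A change is given as the log2 fold change of treated over untreated cells with its standard error (SE), and the p-values are from edgeR's quasi-likelihood test, adjusted by the Benjamini-Hochberg method over 13028 genes tested of 37310 counted. A gene was called where the adjusted p was below 0.05 and the log2 fold change exceeded 0.5 in size.

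TGF-β binds a complex of type II and type I receptor kinases, which phosphorylates SMAD2 and SMAD3. Together with SMAD4 these enter the nucleus and act with AP-1 and other factors on their target genes, among which are inhibitors of the pathway itself. In epithelial cells the early targets include transcription factors of EMT, such as Snail, and genes of the extracellular matrix, its proteases and its receptors, while proliferation is held back at later times.

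The untreated libraries held 4297832 and 7181737 counts and the treated ones 12761749 and 13574397, so that depth moved with the treatment. With the counts of every library thinned to the smallest total, 520 genes were called higher and 304 lower, against 554 and 335 with all counts. The limit of 3 counts corresponded to 0.661 and 0.399 CPM in the untreated and to 0.245 and 0.238 CPM in the treated libraries. Intervals and bounds made from counts cover counting error only. *Lnc-Nr6a1*, annotated as *Gm13507*, was counted 11 and 7 times in the untreated libraries labelled knockout and 0 times in both treated ones. The untreated control libraries held 3 and 14 counts and the treated ones 25 and 35. The labelled genotypes of the untreated libraries could therefore not be checked with this gene, whose counts overlapped between them, whereas the treated libraries stood apart. By contrast, *Mal2*, *Dsg2* and *Fam111a* were at 0 counts in every library labelled knockout, and their lowest counts in a control library were 52, 74 and 122. These genes were chosen because the study names them, and with their values known. According to the study's methods the clones were screened for the deletion by PCR on genomic DNA, and the amplicons were sequenced. RNA of the clones was also measured by quantitative PCR, and the study reports a complete loss of the isoforms in homozygous clones. None of these assays is part of the counts. Of the 8 epithelial markers, *Epcam*, *Cldn3* and *Cldn7* were at 0 in all 4 libraries, and the summed level of the list was 6970 and 6632 CPM in untreated and 7937 and 10387 CPM in treated libraries. The summed levels of fibroblast, endothelial and immune markers did not exceed 5.45 CPM in any of them.

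After 2 h of TGF-β, 554 genes rose and 335 fell in the libraries labelled knockout, which was 4.25% and 2.57% of the genes tested, while the median of all genes was 0 on the log2 scale. Counts of list members called in what follows are to be set beside these shares. In all of the called genes the treated and untreated libraries did not overlap, as was the case for 3695 genes with higher and 3685 with lower levels among all those tested. The change exceeded 1 on the log2 scale in 330 of the genes that rose and 213 of those that fell, and exceeded 2 in 102 and 42. The treated libraries were unequal. In 401 of the 554 genes that rose, treated library 2 was the higher one, with a median log2 ratio to library 1 of 0.18, against −0.0046 over all genes tested. Among the 335 genes that fell it was the lower one in 239. The number of calls changed with the library left out. Such a fit leaves 1 library in a group and can lose a call though the log2 fold change stays the same. A lost call is therefore no measure of how far a change depended on that library. Without untreated library 1, 92 genes were called higher and 44 lower, and without untreated library 2 there were 110 and 48. Leaving out treated library 2 gave 212 and 63 calls and leaving out treated library 1 gave 550 and 277. The control libraries entered through the shared estimate of the spread, and without untreated control library 1 or 2 there were 569 and 576 calls in all, and without treated control library 1 or 2 there were 1376 and 1381. The called genes kept their direction under every alternative that called them. With each of the 8 libraries left out in turn, 74 genes were called higher and 23 lower every time.

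**Figure D1:**
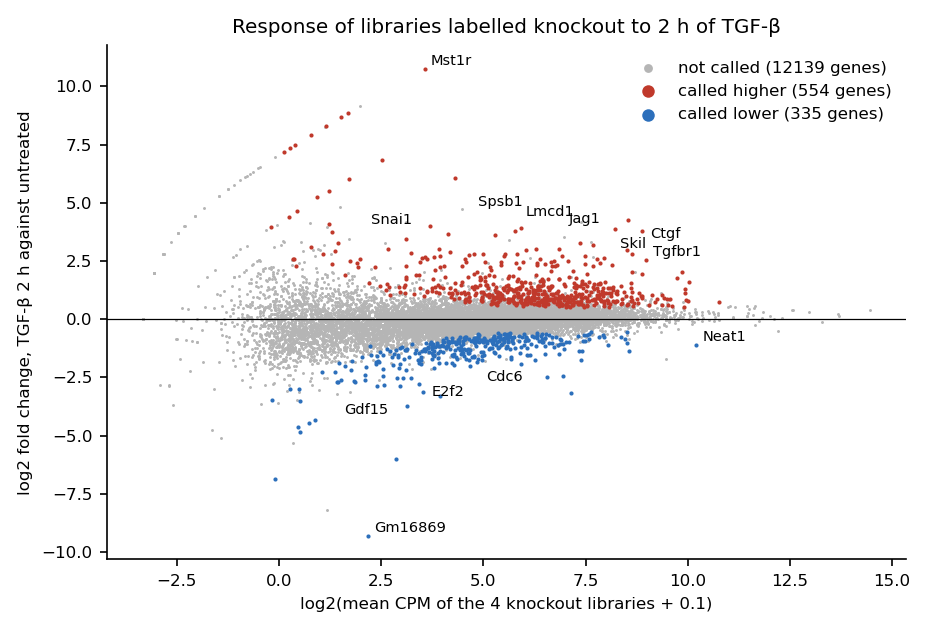
Log2 fold change of TGF-β-treated over untreated libraries labelled knockout (vertical axis) against the mean level in CPM (horizontal log axis), with a point for each of 13028 genes tested and with called genes in colour. The 554 genes called higher and the 335 called lower lie above and below the bulk of the genes, and *Snai1* and *Lmcd1* have values of 3.99 and 3.91.

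Of 20 feedback inhibitors of the TGF-β pathway 10 rose and 1, *Dact2*, fell, with a median log2 fold change of 0.76. *Spsb1*, an adaptor of a ubiquitin ligase that targets the type II receptor, went from 5.73 and 8.64 CPM in untreated to 90.0 and 116 CPM in treated libraries (log2 fold change 3.80, SE 0.27, adjusted p = 0.000313). *Skil*, which encodes the SMAD corepressor SnoN, measured 82.7 and 103 CPM before and 454 and 490.4 CPM after treatment (2.34, SE 0.19, adjusted p = 0.000313). Both treated libraries lay well above both untreated ones for these genes. *Ski*, the related corepressor, rose from 84.4 and 83.3 to 249 and 271 CPM (log2 fold change 1.63, SE 0.15, adjusted p = 0.000475). *Smad7*, the inhibitory SMAD that blocks the type I receptor, rose from 38.8 and 31.4 to 132 and 207 CPM (2.28, SE 0.33, adjusted p = 0.00449). The levels of *Pmepa1*, a membrane protein that sequesters receptor SMADs, were 198 and 194 CPM before and 522 and 648 CPM after treatment (1.57, SE 0.17, adjusted p = 0.00123). Follistatin (*Fst*), which binds activins, rose from a low level of 3.53 and 2.79 to 13.5 and 24.6 CPM (2.62, SE 0.35, adjusted p = 0.0033). The remaining members that rose were *Lemd3*, *Smurf1*, *Smurf2* and *Zfp451*. The corepressor *Tgif1* measured 79.8 and 83.1 CPM in untreated and 109 and 196 CPM in treated libraries, and *Smad6* 17.6 and 17.1 and then 25.1 and 28.8 CPM, and neither was called (adjusted p = 0.142 and 0.364), although *Tgif1* was with DESeq2 (0.0318), without a filter on low counts (1.14e-05) and without treated library 1 (0.0404). The number of members called higher was 6 and 5 without untreated library 1 or 2, 9 and 7 without treated library 1 or 2, and at most 11. Of the 11 called genes, *Dact2*, *Lemd3*, *Smad7*, *Smurf1* and *Smurf2* were lost without untreated library 1 (adjusted p = 0.0554 to 0.188), and these and *Fst* without untreated library 2 (0.0701 to 0.218). *Dact2*, *Lemd3* and *Smurf2* were lost without treated library 1 (0.0622 to 0.119), these and *Smurf1* without treated library 2 (0.0723 to 0.287), *Dact2*, *Lemd3* and *Smurf1* without untreated control library 1 or 2 (0.0513 to 0.0945), and *Dact2* and *Lemd3* with thinned counts (0.0790 to 0.189). *Lemd3* was not called with limma-voom (0.0514) nor *Dact2* with DESeq2 (0.0526).

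The receptors differed among themselves. Of 9 tested, 3 rose, with a median of 0.28 that was 0.0361 without untreated library 2. The type I receptor gene *Tgfbr1* measured 147 and 148 CPM in untreated and 1037 and 695 CPM in treated libraries (log2 fold change 2.55, SE 0.25, adjusted p = 0.00079), while the type II receptor gene *Tgfbr2* was at 191 and 201 and then at 161 and 204 CPM (−0.10, SE 0.17, adjusted p = 0.79). Thus the ranges of treated and untreated libraries overlapped for *Tgfbr2*, and were far apart for *Tgfbr1*. *Acvr1*, a type I receptor of BMPs and activins, rose from 33.9 and 38.8 to 152 and 207 CPM (2.30, SE 0.20, adjusted p = 0.000445). The BMP type II receptor gene *Bmpr2* rose from 55.3 and 58.9 to 139 and 136 CPM (1.27, SE 0.17, adjusted p = 0.00314). Among 5 SMAD transducers *Smad3* rose, from 150.1 and 153 to 248 and 354 CPM (0.99, SE 0.19, adjusted p = 0.0171), and *Smad2*, at 52.0 and 54.9 and then 59.6 and 67.0 CPM, was not called (0.24, adjusted p = 0.39). Among 12 ligand genes, 2 fell and 1 of the list rose. *Gdf15*, a stress-induced distant member of the family, fell from 13.9 and 18.2 to 1.55 and 0.874 CPM (−3.72, SE 0.39, adjusted p = 0.00101). The BMP ligand gene *Bmp4* fell from 27.8 and 25.0 to 5.79 and 8.66 CPM (−1.86, SE 0.28, adjusted p = 0.00565). The member that rose, *Bmp1*, encodes a procollagen protease and not a ligand (0.69, SE 0.17, adjusted p = 0.0407). The activin subunit gene *Inhba*, with 9.48 and 12.1 CPM before and 18.3 and 97.1 CPM after treatment, was highest by far in treated library 2 and was not called (2.40, SE 0.64, adjusted p = 0.0564), although it was with DESeq2 (0.0412), without a filter on low counts, without treated library 1 (0.000695) and without either treated control library (0.0408 and 0.0411). The log2 fold change of *Inhba* ranged from 0.763 to 3.16 across the alternatives. *Tgfb1* itself was at 22.9 and 25.7 and then at 27.6 and 34.0 CPM (0.34, adjusted p = 0.456). Of 6 genes for Id proteins and E proteins, which control differentiation downstream of BMPs, edgeR, DESeq2 and limma-voom each called 0 and 0 had an unadjusted p below 0.05, with *Id1* at 64.4 and 74.3 and then 96.0 and 76.1 CPM and *Id3* at 26.5 and 26.3 and then 34.0 and 26.5 CPM (adjusted p = 0.337 and 0.744). In control cells, both Id genes fell, by 0.65 and 1.10 on the log2 scale, and the differences between the responses were not called (adjusted p = 0.444 and 0.495). Of the 7 called genes, 4 were lost without untreated library 1 (*Bmp1*, *Bmp4*, *Bmpr2* and *Smad3*, adjusted p = 0.0550 to 0.226) and 3 without untreated library 2 (*Bmp1*, *Bmp4* and *Smad3*, 0.0507 to 0.198). Without treated library 2, *Bmp1* and *Smad3* were lost (0.103 to 0.213), and *Bmp1* also without either untreated control library (0.0762 and 0.0768).

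Transcription factors of EMT rose in 5 of 11 tested genes, with a median of 0.70 that was 0.42 without treated library 2. *Snai1*, which encodes the repressor Snail, went from 1.54 and 1.46 CPM to 26.1 and 21.9 CPM (log2 fold change 3.99, SE 0.30, adjusted p = 0.000313). *Ets1*, a factor of invasion and protease genes, rose from 123 and 110.2 to 304 and 381 CPM (1.56, SE 0.17, adjusted p = 0.00122). *Sox4*, a factor known to act in TGF-β-induced EMT, rose from 112 and 128 to 334 and 344 CPM (1.49, SE 0.21, adjusted p = 0.00367). The lowest treated library was above the highest untreated one for all of these. *Hmga2*, a chromatin protein that takes part in the induction of *Snai1*, measured 159 and 139 CPM and then 265 and 415 CPM (1.19, SE 0.27, adjusted p = 0.0328). Of the zinc-finger repressors of E-cadherin, *Zeb2* rose from 25.1 and 24.7 to 49.9 and 62.5 CPM (1.17, SE 0.18, adjusted p = 0.0054), and *Zeb1*, at 43.0 and 38.3 and then 53.9 and 78.0 CPM, missed the threshold (0.70, SE 0.19, adjusted p = 0.0616). *Zeb1* was called with DESeq2 (0.0294), without a filter on low counts (0.00449), without treated library 1 (0.0192) and without either treated control library (0.0457 and 0.0449). Leaving out untreated library 1 lost *Hmga2*, *Sox4* and *Zeb2* (adjusted p = 0.0628 to 0.153) and leaving out untreated library 2 lost *Hmga2* and *Zeb2* (0.0777 to 0.226). *Hmga2* was also lost without treated library 2 (0.182) and without untreated control library 1 or 2 (0.0623 and 0.0618).

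The sequences before the transcription start of a few of the called genes are shown, because they hold motifs of SMADs, Snail and ZEB repressors or CREB and ATF factors. A window of 250 bases before the start was taken from RefSeq (GRCm38.p6, a later build than that of the counts), and both strands were searched for the letters of each motif. Of 12933 symbols tested, 9252 had an entry, among them 417 of 552 that rose and 265 of 334 that fell. Capitals mark the motif, which is the E-box CACCTG bound by Snail and ZEB factors in *Snai1* (chr2:167537945-167538194, plus strand, 126 bases before the start), the GC-rich SMAD element GGCGCC in *Tgfbr1* (chr4:47352972-47353221, plus strand, 233 bases before the start) and in *Fosl2* (chr5:32136222-32136471, plus strand, 203 bases before the start), and the cyclic AMP response element TGACGTCA in *Mcm5* (chr8:75109259-75109508, plus strand, 99 bases before the start), a gene that fell.
Snai1: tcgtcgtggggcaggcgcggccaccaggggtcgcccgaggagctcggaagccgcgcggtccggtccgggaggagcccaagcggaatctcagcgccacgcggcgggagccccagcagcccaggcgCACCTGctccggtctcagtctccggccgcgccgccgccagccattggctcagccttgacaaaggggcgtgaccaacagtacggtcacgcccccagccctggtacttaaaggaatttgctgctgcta
Tgfbr1: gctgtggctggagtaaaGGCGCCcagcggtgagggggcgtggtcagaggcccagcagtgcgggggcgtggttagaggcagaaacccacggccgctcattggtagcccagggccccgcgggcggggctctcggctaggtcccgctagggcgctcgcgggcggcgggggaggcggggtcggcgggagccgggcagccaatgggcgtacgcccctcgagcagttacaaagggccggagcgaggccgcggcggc
Fosl2: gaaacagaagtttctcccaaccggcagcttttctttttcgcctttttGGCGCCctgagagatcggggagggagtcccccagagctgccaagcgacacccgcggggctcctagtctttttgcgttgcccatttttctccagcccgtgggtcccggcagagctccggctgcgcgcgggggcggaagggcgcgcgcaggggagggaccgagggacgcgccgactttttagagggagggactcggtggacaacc
Mcm5: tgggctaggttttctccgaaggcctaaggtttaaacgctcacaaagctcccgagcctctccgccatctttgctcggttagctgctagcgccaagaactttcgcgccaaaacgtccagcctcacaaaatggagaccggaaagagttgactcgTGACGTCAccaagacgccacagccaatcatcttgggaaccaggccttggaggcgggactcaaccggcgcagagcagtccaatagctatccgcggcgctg

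The AP-1 site TGACTCA was found in 8.63% of the promoters of genes that rose (36 of 417), in 2.26% of those that fell (6 of 265) and in 4.27% of all. The GC-rich SMAD element was in 24.9% and 19.6% of the promoters of genes that rose and fell and in 19.9% of all. Shares for the other motifs were close to those of all promoters, with 17.5%, 14.3% and 17.5% for the E-box, 3.12%, 2.64% and 3.19% for the cyclic AMP response element and 1.44%, 1.89% and 1.44% for the CArG box of serum response factor. The SMAD palindrome GTCTAGAC and the CAGA box AGCCAGACA were rare, each in 0.27% of all promoters, and were found in 1 and 0 promoters of genes that rose and in 2 and 1 of those that fell. These are matches of letters in a short window and were not tested.

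Of 14 genes for AP-1 and ATF factors, which include immediate-early genes, 4 rose, with a median of 1.38 that was 2.07 without treated library 1 and 0.42 without treated library 2. *Fosl2*, whose product Fra-2 pairs with Jun proteins, rose from 58.2 and 68.4 to 318 and 438 CPM (log2 fold change 2.57, SE 0.22, adjusted p = 0.000402). *Junb* rose from 149 and 165 to 497 and 787 CPM (2.03, SE 0.35, adjusted p = 0.00994). *Fos* and *Jun* stood at 2.87 and 5.58 CPM and at 8.60 and 14.9 CPM in untreated libraries and reached 12.6 and 51.4 CPM and 31.0 and 125 CPM in treated libraries 1 and 2 (adjusted p = 0.0248 and 0.048). Treated library 2 was 4.07 and 4.04 times as high as treated library 1 for *Fos* and *Jun* and 1.38 times as high for *Fosl2*. Of 20 Egr, Nr4a and SRF-driven early genes 5 rose (*Arc*, *Egr2*, *Gadd45b*, *Rhob* and *Trib1*) and 1, *Btg2*, fell. *Rhob*, a small GTPase of endosomes and actin, rose from 24.7 and 23.1 to 105 and 180.0 CPM (2.58, SE 0.32, adjusted p = 0.00257). *Egr2* was counted 0 and 3 times in untreated libraries and reached 3.42 and 5.17 CPM, a ratio of 17.3 (95% counting interval 5.77 to 85.3, adjusted p = 0.0359). Its fitted log2 fold change of 4.07 was 7.13 with thinned counts and 8.34 without untreated library 2, when the untreated library that remained held 0 counts. *Egr1*, which peaks earlier after a stimulus, was at 3.31 and 4.78 and then at 1.22 and 2.38 CPM and was not called (−1.18, adjusted p = 0.298). Of 11 Krüppel-like factors 4 rose (*Klf6*, *Klf7*, *Klf10* and *Klf13*), with *Klf6* from 155 and 166 to 317 and 509 CPM (1.36, SE 0.25, adjusted p = 0.0142) and *Klf10*, known as TGF-β-inducible early gene, from 67.5 and 62.9 to 152 and 122 CPM (1.07, SE 0.16, adjusted p = 0.00479).

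Of 17 genes for feedback on MAP kinases 3 rose and 1 fell (17.6% and 5.88%, beside 4.25% and 2.57% of all genes tested). A log2 fold change above 0 was found in 15 of them, against 6497 of 13028 genes tested. The median of 0.74 was 1.05 without treated library 1 and 0.12 without treated library 2. The phosphatase genes *Dusp10* and *Dusp16*, which act on p38 and JNK, rose from 15.2 and 19.7 to 79.0 and 109 CPM (2.41, SE 0.29, adjusted p = 0.00201) and from 28.4 and 48.4 to 116 and 213 CPM (2.08, SE 0.33, adjusted p = 0.00663). *Spred2*, an inhibitor of the Ras pathway, rose as well. *Spry1*, an inhibitor of receptor tyrosine kinase signalling, fell from 8.60 and 10.9 to 1.71 and 1.83 CPM (−2.46, SE 0.33, adjusted p = 0.00328). *Dusp5*, a phosphatase of ERK, was at 7.05 and 7.71 and then at 9.05 and 71.3 CPM and was not called (2.44, adjusted p = 0.137), except without treated library 1 or without a filter on low counts. Its log2 fold change ranged from 0.297 to 3.27 across the alternatives.

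Part of this programme was high in treated library 2 only. Of 29 genes of the list of NF-κB feedback, cytokines and chemokines 3 were called higher, *Cxcr7*, *Il4ra* and *Vegfa*, which encode a chemokine receptor, a cytokine receptor and a growth factor, and none of which is a feedback inhibitor of NF-κB. *Tnfaip3*, the feedback inhibitor A20, measured 21.4 and 18.9 CPM in untreated and 36.6 and 427 CPM in treated libraries (log2 fold change 3.53, SE 0.95, adjusted p = 0.0564). The prostaglandin synthase gene *Ptgs2* measured 17.9 and 17.8 CPM and then 28.9 and 611 CPM (4.16, SE 1.24, adjusted p = 0.0811). In both genes treated library 1 was above the untreated ones and far below treated library 2. Across the alternatives the log2 fold change ranged from 0.877 to 4.42 for *Tnfaip3* and from 0.703 to 5.11 for *Ptgs2*. DESeq2 called both genes (adjusted p = 0.0268 and 0.0373), as did fits without a filter on low counts, without treated library 1 (0.000894 and 0.00439) and without either treated control library (0.0325 to 0.0364), and *Tnfaip3* was also called with thinned counts (0.0483). The median of the list was 1.06 with both treated libraries, 1.68 without library 1 and 0.0067 without library 2, and 14 members were called higher without library 1 and 1 without library 2. Over genes with a count in all 4 libraries, the median log2 ratio of treated library 2 to 1 was 1.47 for this list (24 of 27 genes higher in library 2), 0.95 for AP-1 and ATF factors (13 of 14), 0.88 for MAP kinase feedback (15 of 17) and 0.83 for Egr, Nr4a and SRF-driven genes (17 of 18). The ratio was −0.0055 over 12806 genes, and between the untreated libraries the medians of these lists lay between 0.08 and 0.24. The number of called AP-1 members was 6 without treated library 1 and 2 without library 2, and 1 without either untreated library, and 1 to 7 when any library was left out. For early genes the number called higher was 3 and 1 without untreated library 1 or 2, 7 and 3 without treated library 1 or 2, and at most 7. MAP kinase feedback had 1 and 2 members called higher without untreated library 1 or 2 and 8 and 2 without treated library 1 or 2. Of the 18 called genes named for early factors and MAP kinase feedback, 12 were lost without untreated library 1 (*Btg2*, *Dusp16*, *Egr2*, *Fos*, *Jun*, *Junb*, *Klf6*, *Klf7*, *Klf10*, *Klf13*, *Spred2* and *Trib1*, adjusted p = 0.0561 to 0.274). Without untreated library 2 all of these but *Dusp16*, and also *Arc* and *Rhob*, were lost (13 genes, 0.0516 to 0.207). Without treated library 2, *Egr2*, *Fos*, *Jun*, *Klf6*, *Klf13*, *Spred2* and *Trib1* were lost (0.0673 to 0.258), and the log2 fold changes of *Fos* and *Jun* went from 2.87 and 2.70 to 1.54 and 1.38. *Klf7* was lost without treated library 1 (0.0578), and *Egr2*, *Jun* and *Klf13* without either untreated control library (0.0663 to 0.0742). With limma-voom *Fos*, *Jun* and *Egr2* were not called (0.159, 0.175 and 0.0553), and *Fos* was not in a fit of the 4 libraries alone (0.0507).

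**Figure D2:**
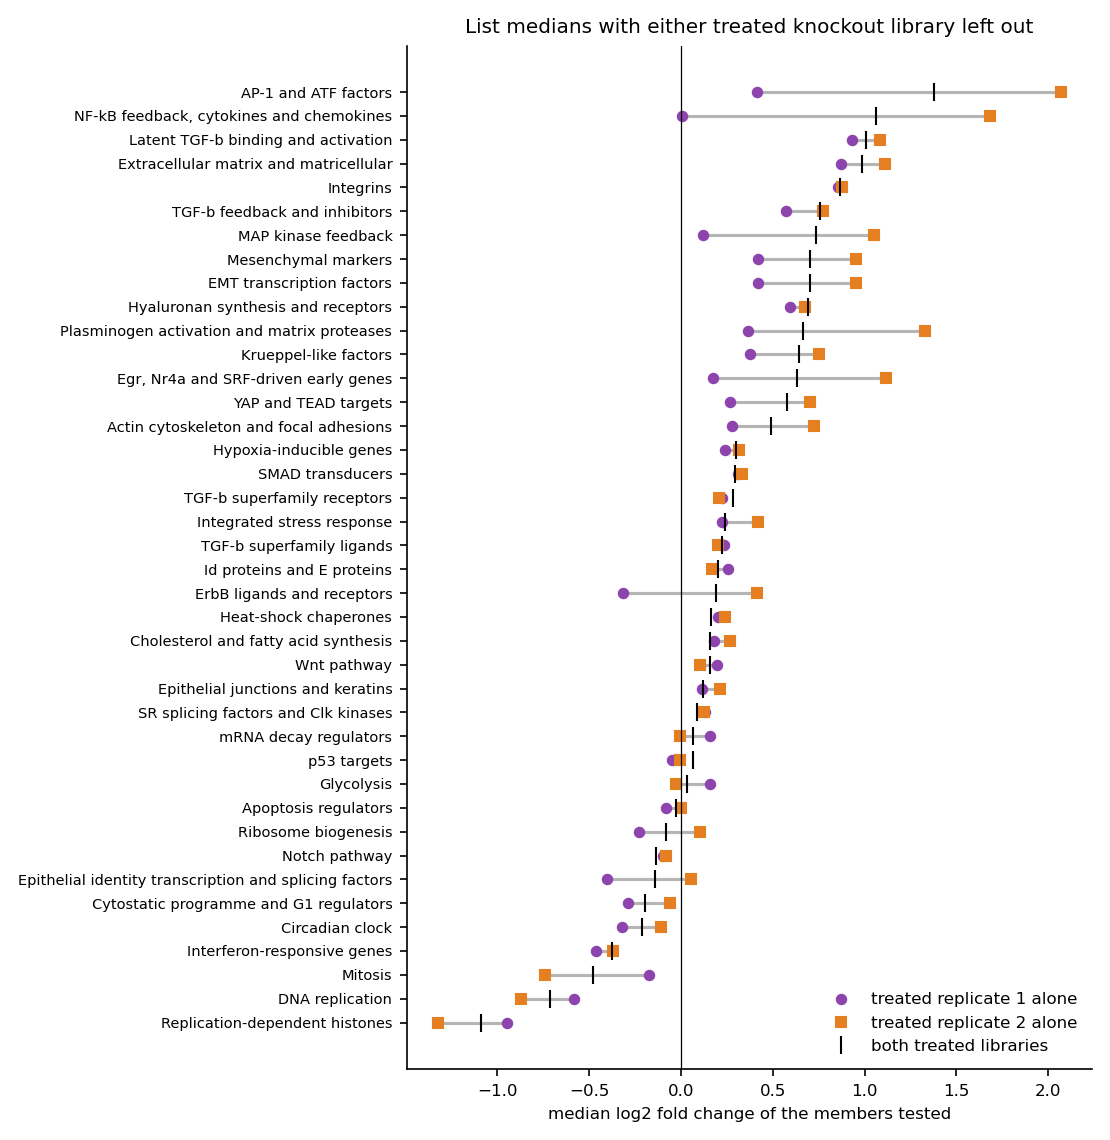
Median log2 fold change of the tested members of each gene list with both treated libraries labelled knockout and with either left out. Lists with at least 5 tested members are drawn, without the marker lists and the targeted locus. The points of the list of NF-κB feedback, cytokines and chemokines spread from 0.0067 to 1.68, whereas those of the integrins lie between 0.85 and 0.87.

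Genes of the pericellular matrix made up the next group. Of 28 genes for extracellular matrix and matricellular proteins 11 rose and 0 fell, with a median of 0.99. *Ctgf*, a matricellular protein and a classical target of TGF-β and YAP, went from 66.8 and 61.5 to 627 and 1117 CPM (log2 fold change 3.77, SE 0.30, adjusted p = 0.000313). Thrombospondin 1 (*Thbs1*), which can activate latent TGF-β, rose from 62.4 and 75.0 to 251 and 429 CPM (2.30, SE 0.27, adjusted p = 0.00169). The related *Cyr61* measured 17.9 and 31.5 CPM and then 63.6 and 207 CPM, with a log2 fold change of 2.43 (SE 0.48, adjusted p = 0.0188) that was 1.35 without treated library 2. The genes that rose also included *Wisp1*, *Tnfaip6*, the laminin genes *Lama3*, *Lamb1* and *Lamb3* and the collagen genes *Col5a1* and *Col7a1*. Laminins and type VII collagen are components of the epithelial basement membrane zone. Fibronectin (*Fn1*) was not called, at 50.5 and 87.6 CPM in untreated and 93.8 and 137 CPM in treated libraries (0.73, SE 0.28, adjusted p = 0.153), and untreated library 2 was close to treated library 1. It was called without a filter on low counts (0.000876).

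Of 15 genes for plasminogen activation and matrix proteases 5 rose and 0 fell. Urokinase (*Plau*), which activates plasminogen, rose from 8.82 and 15.6 to 41.2 and 77.9 CPM (log2 fold change 2.25, SE 0.37, adjusted p = 0.00835). The metalloprotease inhibitor *Timp1* rose from 44.5 and 41.5 to 81.3 and 109.6 CPM (1.15, SE 0.18, adjusted p = 0.00614), and *Timp3*, which had 0 counts in both untreated libraries, reached 2.77 and 5.64 CPM. Genes for proteases and for their inhibitors therefore rose together. The membrane protease gene *Mmp14* rose too.

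Integrins, the receptors by which cells hold on to the matrix, rose in 8 of 13 tested genes (*Itga2*, *Itga5*, *Itga6*, *Itgav*, *Itgb1*, *Itgb3*, *Itgb5* and *Itgb6*), with a median of 0.87. *Itgb6*, the partner of αv in an activator of latent TGF-β, rose from 69.7 and 93.2 to 566 and 724 CPM (log2 fold change 2.98, SE 0.22, adjusted p = 0.000313). The collagen receptor subunit gene *Itga2* rose from 19.8 and 29.8 to 118 and 293 CPM (3.03, SE 0.43, adjusted p = 0.00424). *Itga5*, of the fibronectin receptor, rose from 32.0 and 34.0 to 83.0 and 164 CPM (1.90, SE 0.38, adjusted p = 0.0194). Of 8 genes for binding and activation of latent TGF-β 6 rose, which were *Itgav*, *Itgb5*, *Itgb6*, *Thbs1*, the latent TGF-β binding protein gene *Ltbp1* and *Furin*, the convertase that cleaves the TGF-β precursor. *Furin* was at 121 and 121 CPM before and at 265 and 334 CPM after treatment (1.31, SE 0.18, adjusted p = 0.0041), against a log2 fold change of −0.01 in control cells. The difference between the responses was 1.31 (SE 0.26) and was not called with edgeR (adjusted p = 0.392), whereas DESeq2 called it (1.32, adjusted p = 0.00558). Of 13 genes of the list of hyaluronan synthesis and receptors *Sdc3* and *Tnfaip6* rose, neither of which encodes a hyaluronan synthase or receptor. *Sdc3*, a syndecan, rose from 101 and 122 to 244 and 268 CPM (1.20, SE 0.23, adjusted p = 0.017). Of the 25 called genes named for matrix, proteases and receptors, *Ctgf*, *Thbs1*, *Itgb6*, *Wisp1* and *Lamb3* were called whichever library was left out. The other 20 were lost without untreated library 1 (adjusted p = 0.0501 to 0.193), and 19 of them, all but *Col5a1*, without untreated library 2 (0.0507 to 0.155). *Itga5*, *Itgav*, *Itgb1*, *Itgb3*, *Lama3*, *Lamb1*, *Ltbp1*, *Mmp14* and *Sdc3* were lost without treated library 2 (0.0504 to 0.173) and *Mmp14* without treated library 1 (0.0648). With limma-voom *Cyr61* and *Lama3* were not called (0.0608 and 0.057). The number of integrins called was 1 without either untreated library, and that of matrix genes was 4 and 5 without untreated library 1 or 2 and 14 and 8 without treated library 1 or 2. For proteases these numbers were 1 and 1, and 7 and 4, and for latent TGF-β activation 2 and 2, and 6 and 4.

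**Figure D3:**
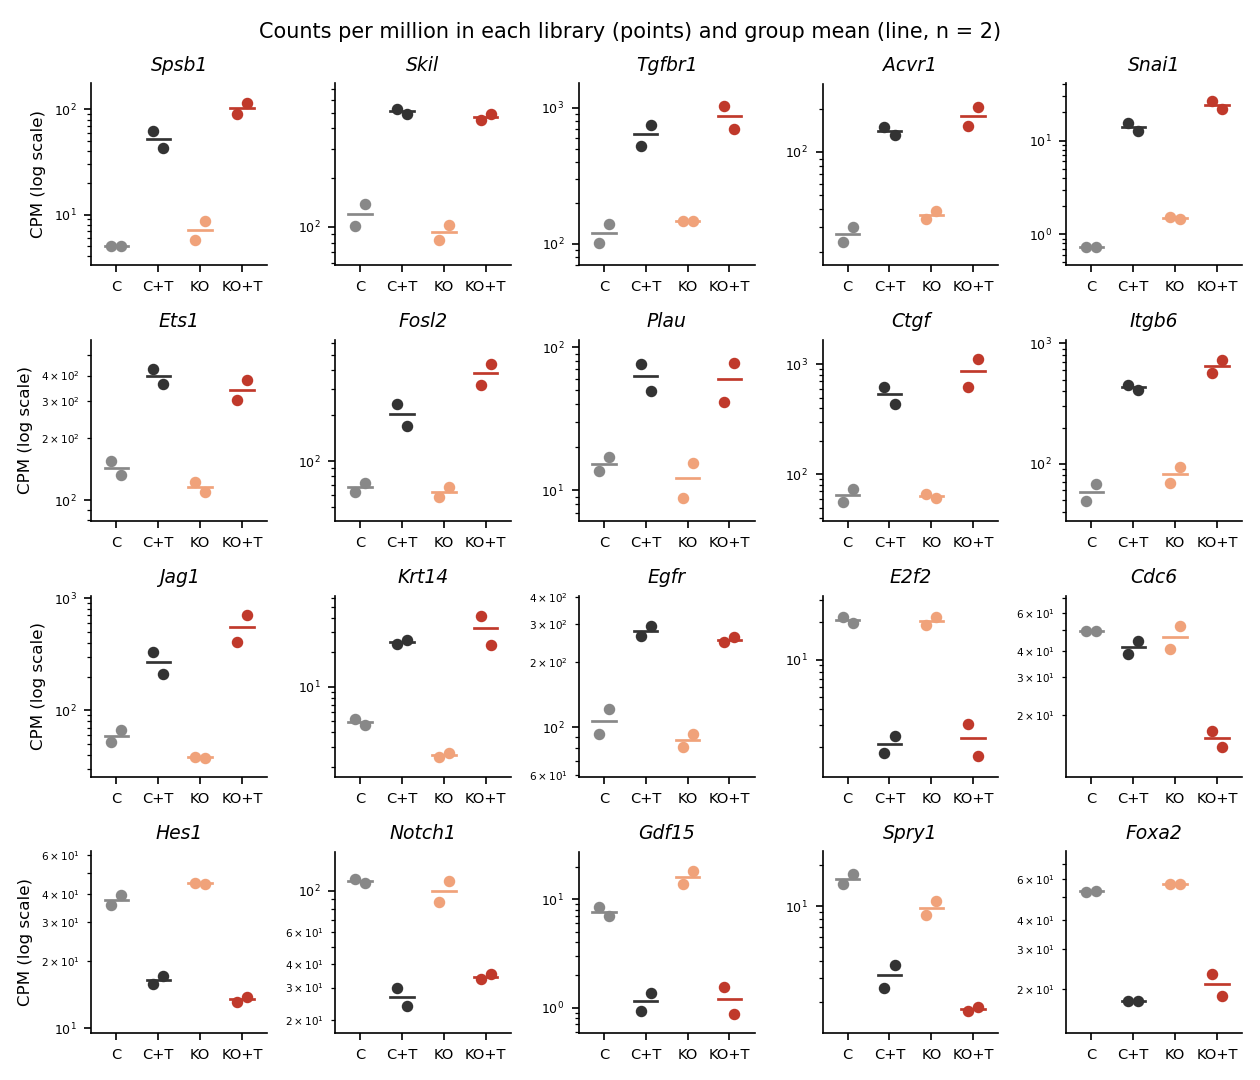
Levels in CPM (log axis) of 20 named genes in each of the 8 libraries, by group, with a point for each library and a line at the mean of the 2 libraries. Among the libraries labelled knockout, both treated points of *Plau* (41.2 and 77.9 CPM) and of *Snai1* (26.1 and 21.9 CPM) lie above both untreated ones, and both treated points of *E2f2* (3.02 and 1.67 CPM) lie below.

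Of 32 genes for the actin cytoskeleton and focal adhesions 6 rose (*Arhgef2*, *Cald1*, *Lmcd1*, *Pdlim7*, *Rhob* and *Tes*) and 1, *Rnd3*, an antagonist of RhoA, fell, with a median of 0.49 that was 0.28 without treated library 2. *Lmcd1*, a LIM domain protein, had the smallest adjusted p of the genes named. It went from 8.60 and 6.78 to 109 and 119 CPM (log2 fold change 3.91, SE 0.20, adjusted p = 6.57e-05). *Pdlim7*, a PDZ and LIM protein of stress fibres, rose from 49.4 and 56.2 to 121 and 232 CPM (1.74, SE 0.33, adjusted p = 0.0158). YAP and TEAD targets rose in 9 of 21 genes (*Amotl1*, *Ctgf*, *Cyr61*, *Dock5*, *F3*, *Foxf2*, *Gadd45a*, *Nt5e* and *Nuak2*), with a median of 0.58 that was 0.27 without treated library 2. *Nt5e*, the ectonucleotidase CD73, rose from 7.50 and 6.38 to 53.1 and 42.4 CPM (2.79, SE 0.28, adjusted p = 0.00079). Tissue factor (*F3*), the starter of coagulation, measured 26.9 and 34.8 CPM and then 106 and 495 CPM (3.27, SE 0.62, adjusted p = 0.015), and its log2 fold change was 1.78 without treated library 2. Of the 16 called genes of this paragraph 9 were lost without untreated library 1 (*Arhgef2*, *Cald1*, *Cyr61*, *Dock5*, *F3*, *Foxf2*, *Nuak2*, *Pdlim7* and *Tes*, adjusted p = 0.0931 to 0.281), and these and *Gadd45a* and *Rhob* without untreated library 2 (0.0516 to 0.207). Without treated library 2 *Arhgef2*, *Cald1*, *Dock5*, *Foxf2*, *Nuak2*, *Pdlim7* and *Tes* were lost (0.0522 to 0.205). *Arhgef2*, *Nuak2* and *Tes* were lost without treated library 1 (0.0696 to 0.139) and without untreated control library 1 or 2 (0.0507 to 0.0775), and *Arhgef2* with thinned counts (0.0581) and in a fit of the 4 libraries alone (0.0555). *F3* and *Nuak2* were not called with limma-voom (0.0568 and 0.0533). Actin genes called higher numbered 2 and 1 without untreated library 1 or 2 and 11 and 2 without treated library 1 or 2. For YAP targets there were 4 and 3, and 10 and 6.

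Markers of the epithelial state were called in both directions after 2 h. Of 31 genes for junctions and keratins 4 rose and 2 fell (12.9% and 6.45%), with a median of 0.12 that was 0.20 and 0.0102 without untreated library 1 or 2. The desmosomal genes *Pkp1* and *Jup*, for plakophilin 1 and plakoglobin, rose from 45.4 and 43.5 to 100.5 and 191 CPM (log2 fold change 1.71, SE 0.28, adjusted p = 0.00794) and from 327 and 327 to 584 and 657 CPM (0.92, SE 0.13, adjusted p = 0.00395). *Ctnnd1* and *F11r* rose as well. The polarity gene *Pard6b* fell from 19.0 and 15.9 to 5.95 and 8.66 CPM (−1.25, SE 0.29, adjusted p = 0.0343), and the tight junction gene *Tjp3* fell from 5.51 and 6.51 to 1.87 and 2.07 CPM (−1.61, SE 0.40, adjusted p = 0.045). E-cadherin (*Cdh1*) was at 247 and 266 CPM in untreated and at 333 and 399.9 CPM in treated libraries and was not called (0.52, SE 0.17, adjusted p = 0.117), and neither were *Krt8*, at 2504 and 2624 and then 3338 and 4345 CPM (0.58, adjusted p = 0.0792), and occludin (*Ocln*), at 41.7 and 45.7 and then 36.5 and 33.1 CPM (−0.33, adjusted p = 0.267). *Krt8* was called with DESeq2 (0.0268), in a fit of the 4 libraries alone (0.0481), without treated library 1 (0.047) and without either treated control library (0.0281 and 0.0267), and *Krt8* and *Cdh1* were called without a filter on low counts (5.66e-05 and 0.0121). Of 7 mesenchymal markers *Itga5* and *Zeb2* rose, and N-cadherin (*Cdh2*, 0.30, SE 0.13, adjusted p = 0.224) and vimentin (*Vim*, 0.05, SE 0.11, adjusted p = 0.838) were not called, the latter at 3524 and 3553 and then at 3769 and 3564 CPM. Of 10 transcription and splicing factors of epithelial identity 1 fell, *Foxa2*, a forkhead factor, from 57.3 and 57.3 to 23.4 and 18.7 CPM (−1.45, SE 0.17, adjusted p = 0.00169). *Krt14*, a keratin of basal and myoepithelial cells, rose from 2.42 and 2.66 to 41.8 and 23.0 CPM (3.66, SE 0.35, adjusted p = 0.000682). It was the only myoepithelial marker of 6 with enough counts to be tested, and the summed level of that list was 2.87 and 2.92 CPM in untreated and 42.1 and 23.9 CPM in treated libraries, nearly all of it *Krt14*. Of the 10 called genes of this paragraph *Foxa2* and *Krt14* were called whichever library was left out. The other 8 were lost without untreated library 1 or 2 (0.0599 to 0.212 and 0.0635 to 0.225). *Ctnnd1*, *Pard6b* and *Tjp3* were also lost without treated library 1 (0.102 to 0.185) and untreated control library 1 or 2 (0.0542 to 0.0800), and these, *F11r* and *Itga5* without treated library 2 (0.0681 to 0.220). *Pard6b* and *Tjp3* were lost with thinned counts (0.0732 to 0.0926), and *Tjp3* was not called with DESeq2 (0.0623).

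Genes of DNA replication fell in 22 of 46 tested and rose in 0, all 46 had a log2 fold change below 0, and the median was −0.72. Among all genes tested 6506 of 13028 lay below 0. *Cdc6*, which loads the replicative helicase, went from 40.6 and 52.1 to 17.0 and 14.2 CPM (log2 fold change −1.58, SE 0.19, adjusted p = 0.00201). *Mcm5*, a subunit of that helicase, went from 243 and 251 to 153 and 119 CPM (−0.86, SE 0.16, adjusted p = 0.0144). *Chaf1a*, a histone chaperone of replication, went from 59.7 and 58.1 to 30.8 and 24.2 CPM (−1.10, SE 0.17, adjusted p = 0.00692), and *Dtl*, an adaptor for destruction of replication factors, from 46.5 and 55.0 to 30.0 and 18.7 CPM (−1.06, SE 0.27, adjusted p = 0.0464). *Pcna*, the sliding clamp, at 207 and 256 and then 189 and 168 CPM, was not called (−0.38, adjusted p = 0.206). The transcription factor gene *E2f2* stood out with a fall from 19.0 and 22.2 to 3.02 and 1.67 CPM (−3.13, SE 0.32, adjusted p = 0.00095), and was the only one of 27 genes of the cytostatic programme and of G1 regulators that was called. The inhibitors *Cdkn2b* (0.44, adjusted p = 0.206) and *Cdkn1a* (1.19, adjusted p = 0.186) were not called, and *Cdkn1a*, at 44.5 and 61.7 and then 62.8 and 181 CPM, was high in treated library 2 alone and was called without treated library 1 (0.0259) or without a filter on low counts (1.14e-08). The log2 fold change of *Cdkn1a* ranged from 0.245 to 1.77 across the alternatives. Of 34 mitosis genes *Aurkb*, *Cdc20*, *Cdc25b*, *Foxm1* and *Mybl2* fell, and all 34 had a value below 0, with a median of −0.48. *Cdc25b*, *Aurkb* and *Mybl2* had log2 fold changes of −0.95, −0.79 and −0.75 (adjusted p = 0.0479, 0.0397 and 0.0477). *Mki67* and *Top2a*, at −0.41 and −0.32, were not called (adjusted p = 0.287 and 0.444).

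Replication-dependent histone genes, which are transcribed in S phase and whose mRNAs mostly end in a stem-loop instead of a poly(A) tail, fell in 37 of 67 tested, with 0 that rose and a median of −1.09. All 67 had a log2 fold change below 0. Their summed level was 7674 and 9271 CPM in untreated and 4816 and 3589 CPM in treated libraries, and in control libraries it was 10060 and 8094 CPM without and 7724 and 6492 CPM with TGF-β. By class, 11 of 18 H2A genes (median −1.58), 10 of 12 H3 genes (−1.36), 7 of 19 H2B genes (−1.0), 6 of 13 H4 genes (−0.90) and 3 of 5 linker H1 genes (−0.93) fell. *Hist1h2ag* fell from 35.1 and 45.6 to 10.8 and 9.38 CPM (−2.0, SE 0.33, adjusted p = 0.00901), and *Hist1h2ao* from 15.9 and 15.4 to 3.10 and 2.38 CPM (−2.51, SE 0.44, adjusted p = 0.0108). The pseudogene *Hist3h2bb-ps* had the lowest value of the list (−2.99, SE 0.71, adjusted p = 0.039). Histone genes have near-identical copies between which reads can be split, so that values of single copies are uncertain. Other RNA classes that lack a poly(A) tail had medians of −0.13 (snoRNA), −0.18 (snRNA) and −0.57 (misc_RNA), and whether the share of such RNA in the libraries had a part in the histone values was not tested.

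In replication genes, histones and mitosis genes, treated library 2 was below treated library 1 in 44 of 46, 58 of 67 and 33 of 34 genes. The summed level of replication genes was 4362 and 4829 CPM in untreated and 3299 and 2626 CPM in treated libraries. Medians without treated library 2 were −0.58 for replication, −0.95 for histones and −0.18 for mitosis, and without treated library 1 they were −0.87, −1.32 and −0.74. In the control cells the medians were −0.10, −0.47 and 0.02. The number of genes that were called lower changed with the library left out, which leaves 1 library in its group. For replication it was 1 and 2 without untreated library 1 or 2, 20 and 2 without treated library 1 or 2, and at most 29. The corresponding numbers were 4, 3, 40 and 5 for histones, with at most 58, and 0, 0, 7 and 0 for mitosis. *E2f2* and *Cdc6* were called whichever library was left out, and the other 11 called genes named for replication, mitosis and histones were lost without untreated library 1 (adjusted p = 0.0548 to 0.232), untreated library 2 (0.0691 to 0.256) or treated library 2 (0.0550 to 0.276), when the log2 fold change of *Cdc25b* was −0.60. *Aurkb*, *Cdc20*, *Cdc25b*, *Dtl*, *Hist3h2bb-ps* and *Mybl2* were lost without untreated control library 1 or 2 (0.0627 to 0.0877), *Hist3h2bb-ps* and *Mybl2* without treated library 1 (0.0803 to 0.169), and *Cdc20*, *Dtl*, *Hist3h2bb-ps* and *Mybl2* with thinned counts (0.0507 to 0.139). In a fit of the 4 libraries alone *Aurkb*, *Cdc20*, *Cdc25b*, *Hist3h2bb-ps* and *Mybl2* were not called (0.0508 to 0.0657), nor were *Hist3h2bb-ps* and *Mybl2* with limma-voom (0.0607 and 0.0639) or *Mybl2* without a filter on low counts (0.0503).

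**Figure D4:**
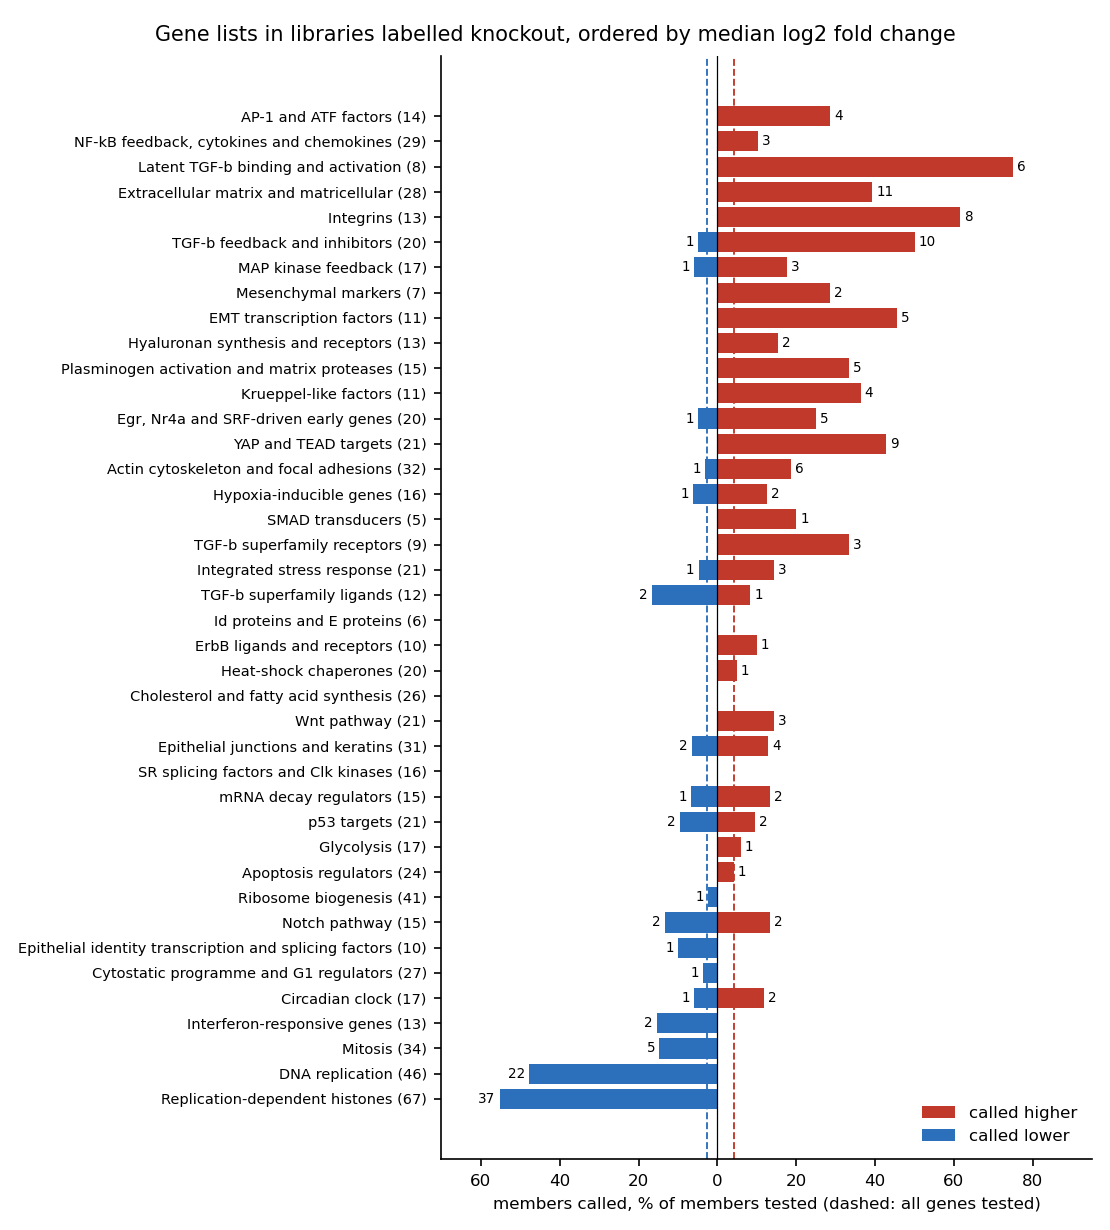
Percentage of the tested members of each gene list that were called higher or lower in treated over untreated libraries labelled knockout, with dashed lines at the shares among all genes tested (4.25% and 2.57%), for the lists with at least 5 tested members other than the marker lists and the targeted locus. Among these, bars for latent TGF-β activation and integrins reach highest on the side of genes that rose, and those for histones and DNA replication on the side of genes that fell.

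Single components of the Notch, Wnt and ErbB pathways were called as well. The shares called higher were 13.3%, 14.3% and 10%, beside 4.25% of all genes tested, and the last was 1 gene. Called lower were 13.3%, 0% and 0%, beside 2.57% of all genes tested. In the Notch pathway 2 of 15 genes rose and 2 fell. The ligand gene *Jag1* rose from 38.8 and 38.0 to 410.4 and 701 CPM (log2 fold change 3.86, SE 0.31, adjusted p = 0.000313), and *Notch2* rose as well. The receptor gene *Notch1* fell from 87.5 and 113 to 33.4 and 35.4 CPM (−1.54, SE 0.18, adjusted p = 0.00166) and the target *Hes1* from 45.0 and 44.4 to 13.1 and 13.8 CPM (−1.73, SE 0.17, adjusted p = 0.00079). *Jag1* and *Notch1* thus moved in opposite directions, and in neither did the libraries overlap. The log2 fold change of *Jag1* was 2.18 in control cells, and the difference of 1.67 (SE 0.40) was not called with edgeR (adjusted p = 0.43). DESeq2 called it (1.69, adjusted p = 0.0102). Of 21 Wnt genes 3 rose, with *Wnt7b*, a ligand, from 152 and 150.3 to 341 and 415 CPM (1.32, SE 0.21, adjusted p = 0.00713), the transcription factor gene *Tcf7l2* (0.86, adjusted p = 0.0402) and the receptor gene *Fzd6* (0.61, adjusted p = 0.0443). Of 10 ErbB ligands and receptors *Egfr* rose, from 81.3 and 93.0 to 249 and 262 CPM (1.55, SE 0.17, adjusted p = 0.00116). *Cxcr7*, a scavenging receptor of CXCL12, rose from 17.2 and 15.7 to 65.5 and 53.6 CPM (1.86, SE 0.18, adjusted p = 0.00079), and the interleukin 4 receptor gene *Il4ra* rose by less (1.06, SE 0.23, adjusted p = 0.026). *Fzd6*, *Il4ra*, *Notch2*, *Tcf7l2* and *Wnt7b* were lost without untreated library 1 (0.0782 to 0.237) or 2 (0.0657 to 0.270). *Fzd6*, *Il4ra* and *Tcf7l2* were lost without treated library 2 (0.148 to 0.189) and without untreated control library 1 or 2 (0.0513 to 0.0801), and *Fzd6* and *Tcf7l2* without treated library 1 (0.109 to 0.118) and with thinned counts (0.0803 to 0.113).

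Among stress, metabolism and clock genes at most 3 members of a list were called in either direction. Of 21 genes of the integrated stress response *Ddit4*, *Slc3a2* and *Slc7a11* rose and *Sesn2* fell. *Ddit4*, an inhibitor of mTORC1, rose from 69.0 and 45.2 to 216 and 258 CPM (log2 fold change 2.06, SE 0.37, adjusted p = 0.0117), the cystine transporter gene *Slc7a11* changed by 1.11 (adjusted p = 0.0251), and *Sesn2*, a stress-induced inhibitor of mTORC1, by −0.91 (adjusted p = 0.0252). Of 21 p53 targets *Gadd45a* and *Gadd45g* rose and *Btg2* and *Sesn2* fell, with *Gadd45a* from 19.8 and 9.30 to 54.1 and 46.8 CPM (1.83, SE 0.35, adjusted p = 0.0156). Of 17 glycolysis genes 1 rose (5.88%, beside 4.25% of all genes tested). This was *Hk2*, the inducible hexokinase, from 49.4 and 44.1 to 172 and 446 CPM (2.73, SE 0.43, adjusted p = 0.00635). The other 16 were not called, and the median of the list was 0.03, with a range from −0.0286 to 0.158 when one of the 4 libraries was left out. Of 16 hypoxia-inducible genes *Hk2* and *Vegfa* rose and *Egln3* fell, *Vegfa* from 91.3 and 64.1 to 159 and 428 CPM (1.92, SE 0.41, adjusted p = 0.024) and *Egln3*, an oxygen-sensing hydroxylase, by −0.95 (adjusted p = 0.0169). Treated library 2 was the higher one by far for *Hk2* and *Vegfa*. In the clock list of 17, *Bhlhe40*, a repressor of clock genes, rose from 82.7 and 56.4 to 385 and 468 CPM (2.62, SE 0.21, adjusted p = 0.000313), *Nfil3* rose (1.36, adjusted p = 0.00633) and *Dbp* fell (−2.06, SE 0.45, adjusted p = 0.0279).

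The proapoptotic BCL2 relative *Bmf* was the only one of 24 apoptosis regulators called, from 111 and 77.1 to 351 and 223 CPM (log2 fold change 1.61, SE 0.25, adjusted p = 0.00565). Of 20 heat-shock chaperones the cochaperone gene *Bag3* rose (1.33, SE 0.17, adjusted p = 0.00276). The shares of apoptosis regulators (4.17%) and chaperones (5%) called higher were near the 4.25% of all genes tested. Of 15 regulators of mRNA decay *Zfp36l2* (1.33, adjusted p = 0.00331) and *Btg1* (0.71, adjusted p = 0.0148) rose and *Btg2* (−1.41, SE 0.25, adjusted p = 0.0116) fell. Of 13 interferon-responsive genes *Mx1* (−1.76, adjusted p = 0.0194) and *Ifit2* (−1.32, adjusted p = 0.0396) fell. Of 41 genes of ribosome biogenesis 1 fell, nucleolin (*Ncl*, −0.54, adjusted p = 0.0461), a share of 2.44% beside 2.57% of all genes tested. Of 2 abundant noncoding RNAs tested, *Neat1*, the scaffold of nuclear paraspeckles, fell from 1596 and 1654 to 903 and 592 CPM (−1.12, SE 0.19, adjusted p = 0.00945). Among 26 genes of cholesterol and fatty acid synthesis and 16 genes for SR splicing factors and Clk kinases, edgeR called 0, with medians of 0.16 (−0.0116 to 0.399 with one of the 4 libraries left out) and 0.09 (0.0498 to 0.151), while 3 and 0 had an unadjusted p below 0.05, DESeq2 called 2 and 0 and limma-voom 0 and 0. Of the 21 called genes named for stress, metabolism, clock and RNA, *Bhlhe40* alone was called whichever library was left out. Without untreated library 1, 17 were lost (0.0561 to 0.300), and 19 without untreated library 2 (0.0507 to 0.289), 5 without treated library 1 (0.0522 to 0.166) and 11 without treated library 2 (0.0536 to 0.213). *Hk2* was lost without untreated library 1 or 2, and the log2 fold change of *Vegfa* was 1.05 without treated library 2. *Dbp*, *Ifit2*, *Ncl* and *Slc3a2* were lost without untreated control library 1 or 2 (0.0507 to 0.0820) and *Slc7a11* with thinned counts (0.0616). In a fit of the 4 libraries alone *Dbp*, *Ifit2* and *Ncl* were not called (0.0521 to 0.0621), nor was *Ifit2* with limma-voom (0.0527), and the change of *Ncl* fell short of 0.5 without a filter on low counts.

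The largest changes by fold concerned genes that were nearly silent in one state. With 0 counts in both untreated libraries, a fold was computed against 3 counts per library and is a lower bound. *Mst1r*, the receptor tyrosine kinase Ron, was counted 73 and 515 times in treated libraries and was at least 44.2-fold higher (adjusted p = 0.0313). The neuronal early gene *Arc* had 47 and 109 counts (at least 11.8-fold, adjusted p = 0.00533), the laminin gene *Lama3* 25 and 113 (at least 10.4-fold, adjusted p = 0.0193), *Timp3* 34 and 71 (at least 7.94-fold, adjusted p = 0.00579) and *Tnfaip6*, a hyaluronan-binding protein, 42 and 39 (at least 6.15-fold, adjusted p = 0.0111). *Prss22*, *Tusc5* and *Birc7* followed with bounds of 4.54, 4.16 and 3.73. *Olr1*, a receptor of oxidised lipoprotein, had 0 and 7 counts before and 307 and 656 after treatment, with a log2 fold change of 6.05 (SE 0.79, adjusted p = 0.00298). *Niacr1*, a receptor of nicotinic acid, had 1 and 0 and then 42 and 236 counts, a ratio of 135 (95% counting interval 24.0 to 5347, adjusted p = 0.0413). In *Mst1r* the level of treated library 2 was 6.88 times that of library 1.

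Among the largest falls were *Gm16869*, with 74 and 11 counts before and 0 and 0 after treatment (at least 36.8-fold lower, adjusted p = 0.0213), and *Gm10800*, with 115 and 22 and then 2 and 3 counts (log2 fold change −6.0, adjusted p = 0.0278). In both of them untreated library 1, the shallowest, was the higher one by far. The apelin receptor gene *Aplnr* had 6 and 29 counts in untreated and 1 and 1 in treated libraries, a ratio of 36.1 (95% counting interval 9.26 to 309). The LIM protein gene *Wtip* had 17 and 9 and then 1 and 1 (ratio 26.8, 6.71 to 233), the ion channel gene *Trpv3* 16 and 19 and then 1 and 2 (24.0, 7.58 to 122) and *AI467606* 6 and 12 and then 1 and 2 (12.4, 3.61 to 65.5). *Ppp1r3c*, a glycogen-targeting phosphatase subunit, with 6 and 40 and then 3 and 1 counts, and *Slc17a9*, a vesicular nucleotide transporter, with 12 and 17 and then 3 and 2, had log2 fold changes of −4.32 and −3.51. *Gdf15* and *Lnc-Nr6a1* completed the 10. *Olr1* and *Gdf15* were called whichever library was left out, although the log2 fold change of *Olr1* was 11.51 without untreated library 2, when the untreated library that remained held 0 counts. Of the 20 genes with the largest changes, 16 were lost without untreated library 1 (adjusted p = 0.0501 to 0.185), 15 without untreated library 2 (0.0624 to 0.296), 9 without treated library 1 (0.0523 to 0.0892) and 15 without treated library 2 (0.0564 to 0.192), and *Mst1r*, *Niacr1* and *Ppp1r3c* also without either untreated control library (0.0530 to 0.0639). The log2 fold change of *Gm10800* was −3.78 without untreated library 1. With thinned counts *Aplnr* was lost (adjusted p = 0.0655) and the log2 fold changes of *Ppp1r3c* and *AI467606* were −7.03 and −5.86. With limma-voom *Gm10800*, *Gm16869*, *Lama3*, *Mst1r*, *Niacr1*, *Olr1*, *Ppp1r3c* and *Wtip* were not called (0.057 to 0.228), and DESeq2 gave *Prss22* and *Tusc5* no adjusted p.

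*Lnc-Nr6a1* (*Gm13507*, ENSMUSG00000085201.1, chromosome 2, 38678777 to 38707890 in NCBIM37, plus strand, a processed transcript) was at least 6.95-fold lower in treated than in untreated libraries (adjusted p = 0.0356), from the 11 and 7 counts given above to 0 and 0. The call was lost when any 1 of the 4 libraries was left out, with thinned counts (adjusted p = 0.167) and with the replicate number as a block (0.0590). In control cells the log2 fold change was 1.53 and was not called (adjusted p = 0.231). *Nr6a1*, the nuclear receptor gene that shares the locus, was at 24.7 and 25.7 CPM in untreated and 19.4 and 19.0 CPM in treated libraries (−0.39, SE 0.19, adjusted p = 0.261), and in control cells it fell by 1.23 on the log2 scale (adjusted p = 0.00734). The strand setting of the counts is not given, so that reads from overlapping genes cannot be told apart.

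Whether the response differed from that of control cells was tested with the interaction of genotype and treatment. The 2 responses share no library. For this difference edgeR called 0 genes, which is 0% of 13028, with a smallest adjusted p of 0.0615, while 1134 genes had an unadjusted p below 0.05 and DESeq2 called 25, of which 21 had a higher and 4 a lower response in knockout-labelled cells. Of the 554 genes that rose, 535 had a log2 fold change above 0 in control cells, against 6695 of 13028 genes tested, and of the 335 that fell 325 were below 0. The medians of these genes in control cells were 0.89 and −0.85, beside 1.12 and −1.17 in the libraries by which they were chosen. In the 3 genes at the smallest p for this difference the values were of opposite sign. *Scamp3*, a protein of membrane trafficking, was at 39.7 and 42.5 CPM in untreated and 55.2 and 60.8 CPM in treated libraries (0.49, SE 0.16) against −1.60 in control cells, a difference of 2.10 (SE 0.23, adjusted p = 0.0615). The mitochondrial thioredoxin gene *Txn2* differed by 1.70 (0.46 against −1.24, SE 0.21) and *Gm15487* by 1.85 (0.43 against −1.42, SE 0.23), with the same adjusted p of 0.0615. *Celf2*, an RNA-binding protein of splicing, had 1 and 3 counts in untreated and 38 and 34 in treated libraries, whereas the control libraries held 151 and 177 counts without and 189 and 143 with TGF-β. Its log2 fold change of 3.08 (SE 0.46, adjusted p = 0.00537) against −0.28 made a difference of 3.36 (SE 0.53, adjusted p = 0.322), and its own call was lost without untreated library 1 or 2 (0.0561 and 0.0622). DESeq2 called these 4, and also *Jag1*, *Furin* and *Jup*, with a higher response than in control cells, and *Cdc6*, with a lower one (adjusted p = 0.0102, 0.00558, 0.0344 and 0.0359). With edgeR the adjusted p of the difference of these last 4 genes was 0.392 to 0.43. Of 15 alternatives, 5 called the difference for *Scamp3* and *Gm15487*, 4 for *Txn2* and 2 for each of the other 5 genes, and for *Jag1* the adjusted p ranged from 9.22e-09 to 0.889. Among lists of at least 5 tested genes, the median was furthest from that of control cells in histones (−1.09 against −0.47), replication (−0.72 against −0.10), latent TGF-β activation (1.01 against 0.44) and Id and E proteins (0.20 against −0.39), and these differences of medians were not tested.

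**Figure D5:**
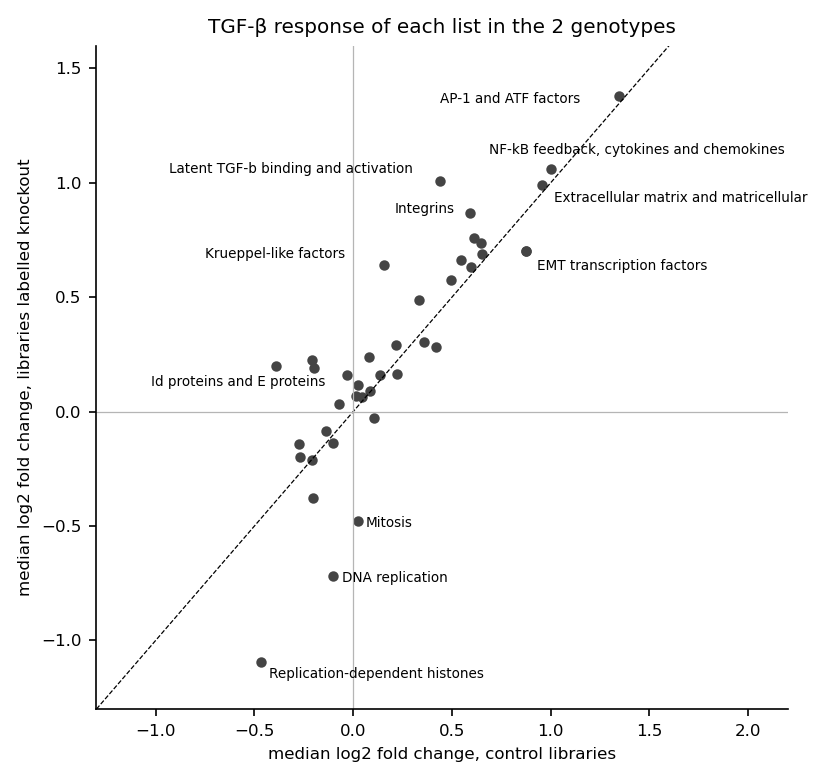
Median log2 fold change of TGF-β in the libraries labelled knockout (vertical axis) against that in control libraries (horizontal axis), with a point for each list of at least 5 tested members (marker lists and the targeted locus left out) and a line of equality. Matrix, EMT factor and AP-1 lists lie near the line, and histones and DNA replication lie below it, with medians of −1.09 and −0.72 against −0.47 and −0.10.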

How the data were processed

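The table that the authors deposited holds raw counts, the whole number of reads on each gene in each of the 8 libraries, with no normalization, and every library column was used. The sample labels name the TruSeq Stranded Total RNA kit and paired reads, and HISAT2, limma and mm10 in the submitters' processing notes, while the paper names an mRNA kit, single-end reads, subjunc of Rsubread on the mm10 and mm9 assemblies, removal of duplicates with samtools rmdup and DESeq2. Removal of duplicates can lower the counts of abundant genes. Which tool counted the reads, and with what strand setting, is not given in the sources used here. All 37310 gene identifiers, in the same order, are found in GENCODE vM1 on NCBIM37 (mm9), the source of symbols and positions. Genes with near-identical copies or with overlapping partners are uncertain.

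Counts were tested with edgeR 4.0.16 in R 4.3.3. Genes that passed filterByExpr over the 4 groups were kept (13028), libraries were scaled by TMM, and glmQLFit was run on all 8 libraries with the group as the only term. Contrasts were tested with glmQLFTest, with Benjamini-Hochberg adjustment. Genes were called where the adjusted p was below 0.05 and the log2 fold change exceeded 0.5 in size, and the difference between genotypes by the adjusted p alone. The SE is the log2 fold change divided by the square root of the F statistic. The common dispersion had a square root of 0.180, with 4 residual and 5.50 prior degrees of freedom. Replicates labelled knockout differed by a median of 0.200 (untreated) and 0.218 (treated) in log2 CPM and by more than sampling noise (chi-square per degree of freedom 6.07 and 29.9). The control pairs, which enter the same estimate of the spread, differed by a median of 0.209 (untreated) and 0.334 (treated). Counting intervals of ratios are exact at the 95% level.

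Genes named are the targeted gene and *Nr6a1*, the 10 called genes with the largest change in each direction, core members and the called members with the largest changes of each list, and genes with the smallest p of the difference. The members and lists were chosen with earlier results of these data known. Counts were also simulated over 13028 genes, with the same mean in all groups except in changed genes, which were not drawn from the lowest levels. The spread of each gene followed the fitted trend with level. The test recovered 51 of 100 genes changed by 1 and 92 of 100 changed by 2 on the log2 scale, with 8 false calls. Neither a spread of genes around that trend nor the inequality of the treated libraries was simulated, so these numbers are not error rates of the real comparison. Alternatives were DESeq2 1.42.0, limma-voom (limma 3.58.1), RLE factors, a block for the replicate number, no filter, a filter at a mean of 10 counts, thinned counts, a fit of the 4 libraries alone, each library left out in turn, and calls with no threshold of fold change. Promoters were read from RefSeq (GRCm38.p6). Some genes are not reported here by name and remain in the counts over lists and over all genes.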

Additional observations from a re-analysis of the deposited data

How the results depend on the processing

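The number of genes called in knockout-labelled cells after TGF-β was 889, and it stayed within 1.5 times of that with DESeq2 (1242), limma-voom (786), RLE factors (897), a mean of at least 10 counts (893), thinned counts (824), a fit of the 4 libraries alone (929) and no fold change threshold (889). Without a filter on low counts there were 1832 calls, 1206 higher and 626 lower, with more genes tested. With a library left out the number ranged from 136 to 1381 in all, from 92 to 825 higher and from 44 to 556 lower, and the sample left alone in its group was assumed to vary like the other groups. Calls in the opposite direction were 0 in all of these. Of the 554 and 335 genes, DESeq2 also called 545 and 331 and limma-voom 461 and 306. The difference between genotypes had 0 calls with edgeR, 25 with DESeq2, 211 without a filter, 3 with thinned counts and 0 to 6 with a library left out (4 and 6 without treated control library 1 or 2). The cause of these moves was not tested. The fit of the 4 libraries alone was not run for the difference, which needs all groups. The log2 fold change of *Tgfbr2*, which was not called, ranged from −0.27 without treated library 2 to 0.0715 without treated library 1.

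With the replicate number as a block 676 genes were called, 431 higher and 245 lower, and 0 for the difference. The labels do not say that a number marks a shared culture or day, and the correlation of the deviations of same-numbered libraries across genes was −0.0092 between untreated and treated libraries labelled knockout and 0.297 between untreated and treated control libraries. Of the named genes, 23 lost their call with the block (adjusted p = 0.0559 to 0.0832). Those that had risen were *Lemd3*, *Smurf1*, *Bmp1*, *Hmga2*, *Egr2*, *Jun*, *Klf13*, *Arhgef2*, *Nuak2*, *Tcf7l2*, *Fzd6*, *Mst1r* and *Niacr1*. Those that had fallen were *Lnc-Nr6a1*, *Dact2*, *Pard6b*, *Tjp3*, *Dtl*, *Hist3h2bb-ps*, *Mybl2*, *Ifit2*, *Ncl* and *Ppp1r3c*. Depth limits genes near the level of 3 counts, most of all in untreated library 1.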
